A study of Saccharomyces cerevisiae with 227 samples.

Results

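Transcript changes after 2 and 3 generations of anaerobiosis were compared between glucose and galactose medium in wild-type Saccharomyces cerevisiae JM43. For each gene the change from 0 to 2 and 3 generations of N2 in galactose was subtracted from the same change in glucose. The comparison takes 18 of the 227 two-color oligonucleotide arrays of the series, chosen by their labels. They are 3 arrays each at 0, 2 and 3 generations of N2 in glucose and 3 each at 0, 2 and 3 generations of N2 in galactose. JM43 is a MATα haploid with leu2, his4, trp1 and ura3 auxotrophies and an intact mitochondrial genome. In both series batch fermentor cultures were sparged with air until 0 generations and with oxygen-free N2 from then on. The galactose medium, SSG-TEA, held Tween 80, ergosterol and antifoam, so that sterol and unsaturated fatty acid were supplied without O2. The glucose medium is labelled SSD-TEA. Whether the 3 replicates of a group came from separate fermentor runs is not given in the labels of these arrays, so p-values measure the spread between these samples only. For cultures treated with the respiratory inhibitor antimycin A, the methods describe 2 fermentor experiments that sampled alternate time points, the series being done 3 times. Whether the N2 series used here followed that scheme is not stated. RNA levels are relative, and fewer transcripts per cell cannot be told apart from fewer cells that express a gene.

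Yeast ferments glucose at high rate even in air, and glucose represses the genes of respiration and of the use of other carbon sources. Galactose represses these genes much less, and cells on galactose respire and ferment together. Removal of O2 stops respiration and the O2-dependent steps of heme, sterol and unsaturated fatty acid synthesis. Heme-activated genes then fall, and genes that heme and sterols keep silent, such as those for the DAN and TIR cell wall mannoproteins, are expressed. The comparison asks which of these slow changes differ between the media. Samples are matched in generations and not in hours. The paper reports that loss of O2 slowed growth in galactose and left the growth rate in glucose unchanged. The sugar therefore cannot be told apart from hours under N2 or from the change in growth rate.

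On each array the sample carried Cy3 and the reference Cy5, and values were deposited for 5609 ORFs. They were taken to be log2 of Cy3 over Cy5. Neither base nor centring nor direction is stated with them, so direction was taken from the dyes. MSN2, deleted in the msn2/4 mutant of the series, was at −5.68 to −3.86 on its 12 arrays at 0 to 0.19 generations, and at −0.37 to 0.45 on the 41 wild-type glucose arrays. A reference shared by all arrays of a medium cancels in a change. Its make-up is described in different ways, as RNA of all sampled times in the labels and as a mix of 1 anaerobic and 1 re-aerated culture in the methods, and whether 1 batch of it served all times is not given. The medians of the 18 arrays lay between −0.03 and 0.05, and 0 to 73 genes lacked a value on an array. Replicate arrays correlated at 0.70 to 0.92, with the lowest value at 0 generations in galactose. Arrays of different time points within 1 medium correlated as low as −0.50. These arrays are aerobic and anaerobic samples, which can differ in opposite ways from a reference, and the direction set by the dyes was kept. Precision is limited by the 3 arrays in a group. GAL1, the galactokinase gene, lay between −0.64 and 0.25 on the glucose arrays and between −0.54 and 0.83 on the galactose arrays, each relative to its own reference, so it does not check the medium. Its difference was −0.09 ± 0.15 (SE), and those of ACT1 and TDH3 were 0.19 ± 0.12 and 0.05 ± 0.19.

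The glucose arrays at 3 generations stood apart from those at 2. In glucose, 326 genes moved by over 1 log2 between 2 and 3 generations, against 16 genes in galactose. Between 3 and 4 generations 6 genes moved by this much in glucose and 11 in galactose. The group means at 2 and 3 generations correlated across genes at 0.48 in glucose and at 0.91 in galactose, and those at 3 and 4 generations at 0.97 in glucose and 0.92 in galactose. In the linear model 675 genes were called between 2 and 3 generations in glucose and 9 in galactose. What separates the glucose arrays up to 2 generations from those from 3 generations on was not tested. If alternate time points came from different fermentor runs, run and time could not be told apart between 2 and 3 generations. A different reference on the arrays from 3 generations on would not cancel, and would enter every change and difference given here at 3 generations and in the mean. The 2 times are therefore also given for genes where the calls at these times differ. The arrays at 0 generations also differ from the next time point, in both media. Between 0 and 0.04 generations 75 genes moved by over 1 log2 in glucose and 136 in galactose. HSP12, a stress-induced membrane protein gene, was at 2.19 ± 0.29 at 0 and −0.59 ± 0.70 at 0.04 generations in glucose, and at 0.12 ± 0.22 and 0.39 ± 0.14 at these times in galactose (SD, n = 3 each).

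**Figure D1:**
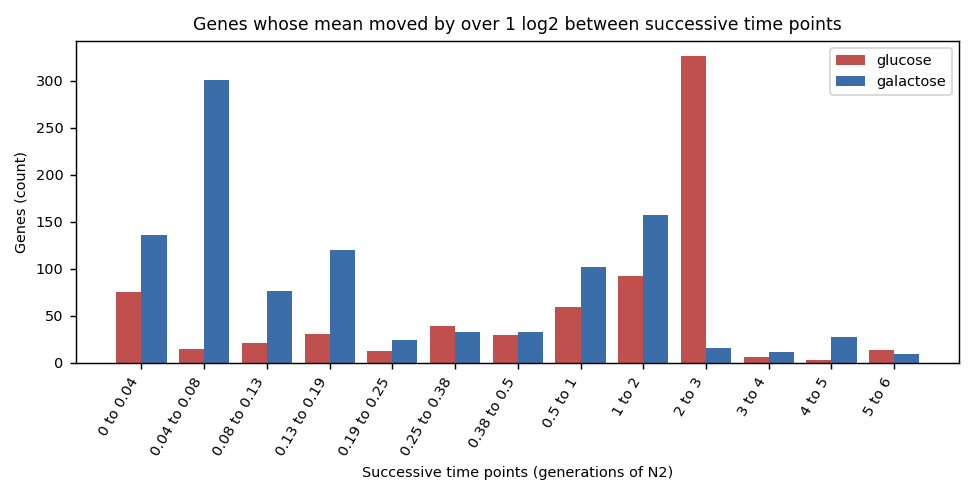
Number of genes (vertical axis, count) whose group mean moved by over 1 log2 between successive time points (horizontal axis, generations of N2), in glucose (red) and galactose (blue). The step from 2 to 3 generations held 326 genes in glucose and 16 in galactose.

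Fewer genes were called between the media than within either. A difference of 2 changes has a larger SE than a change in 1 medium, at 0.53 against 0.37 for the gene STL1. The lower count therefore does not show that the other genes changed alike. Of 5596 genes tested, 942 (16.8%) changed in glucose, with 390 (6.97%) up and 552 (9.86%) down, by limma's moderated statistic with Holm's adjustment at 0.01. Of 5609 genes, 903 (16.1%) changed in galactose, with 391 (6.97%) up and 512 (9.13%) down. The difference between the media was called for 107 genes (1.91%), of which 61 (1.09%) were higher and 46 (0.822%) lower in glucose. At 2 generations 116 genes (2.07%) were called, 72 (1.29%) higher and 44 (0.786%) lower. At 3 generations 195 (3.48%) were called, 80 (1.43%) higher and 115 (2.05%) lower. The difference between these times, a contrast added after seeing the data, was called for 305 genes (5.45%), of which 200 (3.57%) were lower at 3 generations. Called at both times were 37 genes. Of these, 21 were higher and 10 lower at both, and 6 turned sign. Of the 107 genes, 103 had the same sign at both times, and for 93 the 6 glucose arrays and the 6 galactose arrays did not overlap, as was the case for 12% of all genes tested. The call and the overlap rest on the same arrays, so a lack of overlap, here and for genes named below, is no separate support. Overlap was taken around each control mean, so the spread of the control arrays does not enter it. With quantile normalization the calls were 40 higher and 45 lower instead of 61 and 46, so the balance of higher and lower depends on the scaling. Cultures at 0.04 generations were already under N2, so as a control they carry the early N2 response of each medium. With 0.04 generations as the control, an alternative chosen after seeing the data, 444 genes were called. Of the 107 genes, 63 were then called with the same sign and 10 had the other sign.

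A difference can come from either medium. Among the 61 higher genes, 27 rose in glucose without a call in galactose, 15 fell in galactose without a call in glucose, 8 rose in both and 7 fell in both. PBI1 rose in glucose and fell in galactose, and 3 genes were not called in either medium. Among the 46 lower genes, 20 rose in galactose without a call in glucose and 9 fell in glucose without a call in galactose. A further 8 fell in both, 4 rose in both, 4 were not called in either, and ADH6 fell in glucose and rose in galactose. A missing call within 1 medium does not show that the gene was unchanged there.

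**Figure D2:**
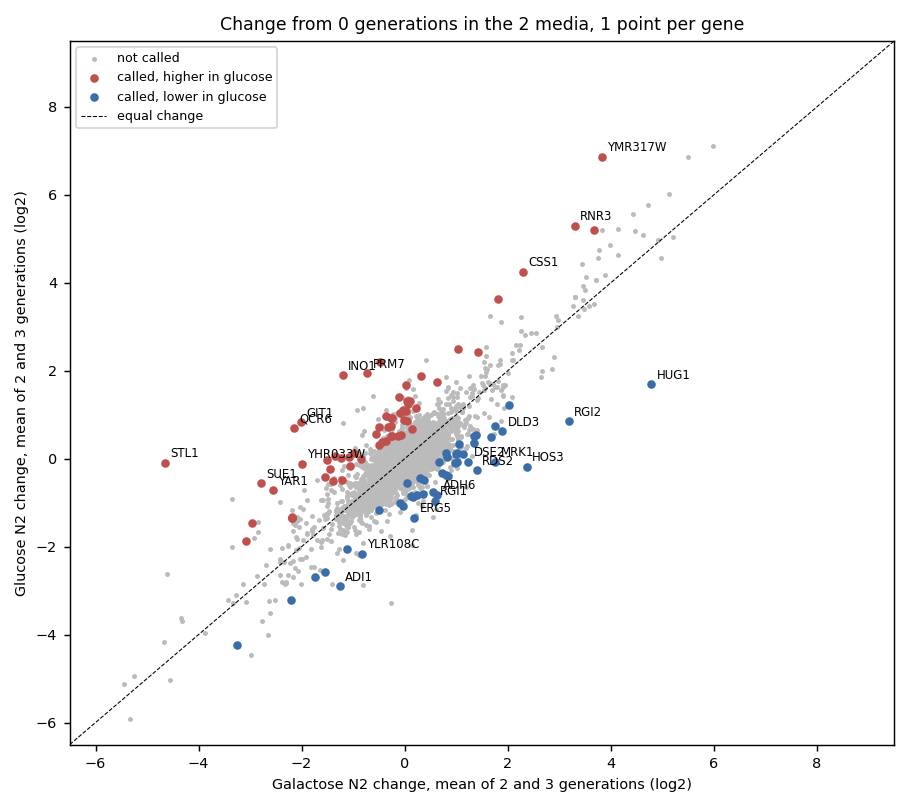
Change in glucose (vertical axis) against change in galactose (horizontal axis), each the mean of 2 and 3 generations of N2 minus 0 generations on the log2 scale, 1 point per gene. The 61 called genes above the dashed line of equal change are red and the 46 below it are blue. STL1 lies farthest above it, by 4.56.

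The largest difference was that of STL1 (YDR536W), the glycerol/proton symporter of the plasma membrane, whose transcription glucose represses. Relative to the mean at 0 generations, STL1 stood at −1.31, −0.79 and −0.18 at 2 generations and 2.60, −0.07 and −0.83 at 3 generations in glucose. In galactose it stood at −4.00, −4.82 and −5.12 at 2 generations and −4.56, −4.81 and −4.64 at 3 generations. All galactose arrays were thus far below the glucose arrays, among which 1 array at 3 generations was high. The difference was 4.56 ± 0.53 (SE, adjusted p = 1.38e-07). It was 3.89 at 2 and 5.24 at 3 generations.

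In other genes too a fall was called in galactose and not in glucose. QCR6 (YFR033C), a subunit of the cytochrome bc1 complex, stood at 0.40 and 1.75 at 2 generations, with 1 value missing, and at 0.27, 0.41 and 0.31 at 3 generations in glucose. In galactose all 6 values lay between −2.44 and −1.92. Its difference was 2.84 ± 0.39 (SE, adjusted p = 2.86e-05). SUE1 (YPR151C), needed for degradation of unstable forms of cytochrome c, stood at −1.05 to 0.34 in glucose and at −3.08 to −2.17 in galactose. YAR1 (YPL239W), a chaperone of the ribosomal protein Rps3, stood at −1.20 to −0.39 in glucose and at −2.66 to −2.43 in galactose. The uncharacterized YHR033W stood at −0.76 to 0.51 in glucose and at −2.26 to −1.88 in galactose. None of these genes overlapped between the media, as was so for 93 of the 107 called genes. The differences of SUE1, YAR1 and YHR033W were 2.24 ± 0.26, 1.85 ± 0.25 and 1.88 ± 0.15 (SE). All 6 glucose arrays of YAR1 were below 0, with a change of −0.71 ± 0.18 that was not called. DUR3, the urea and polyamine permease, differed by 1.48 ± 0.25, with 1.60 at 2 generations and 1.36, not called, at 3 generations. Its call was lost without replicate 2 at 0 generations in glucose (1.34) or in galactose (1.35). IDH1, a subunit of mitochondrial isocitrate dehydrogenase, differed by 1.21 ± 0.17, with 1.64 at 2 generations and 0.79, not called, at 3 generations. For both genes the fall was called in galactose and not in glucose.

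INO1 (YJL153C), the enzyme that makes inositol phosphate for phospholipid synthesis, was up-regulated in glucose. It stood at 2.34, 2.71 and 3.01 at 2 generations and 1.05, 1.19 and 1.07 at 3 generations in glucose. In galactose it stood at −0.60, −0.76 and −0.77 at 2 generations and −1.37, −1.92 and −1.80 at 3 generations. Its difference was 3.10 ± 0.32 (SE, adjusted p = 3.26e-09), although the 3 control arrays in galactose spread from −1.39 to 0.93 around their mean. INO1 had moved in both media before these times. At 1 generation its change was 1.43 in glucose and 3.23 in galactose, so the order of the means turned between 1 and 2 generations. Its difference was 5.06 with 0.04 generations as the control. GIT1 (YCR098C), the permease for glycerophosphoinositol, stood at 1.49 to 1.72 at 2 generations and −0.08 to 0.12 at 3 generations in glucose, against −2.19 to −1.82 over all 6 galactose arrays. Its difference was 2.83 ± 0.30 (SE, adjusted p = 1.10e-08).

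**Figure D3:**
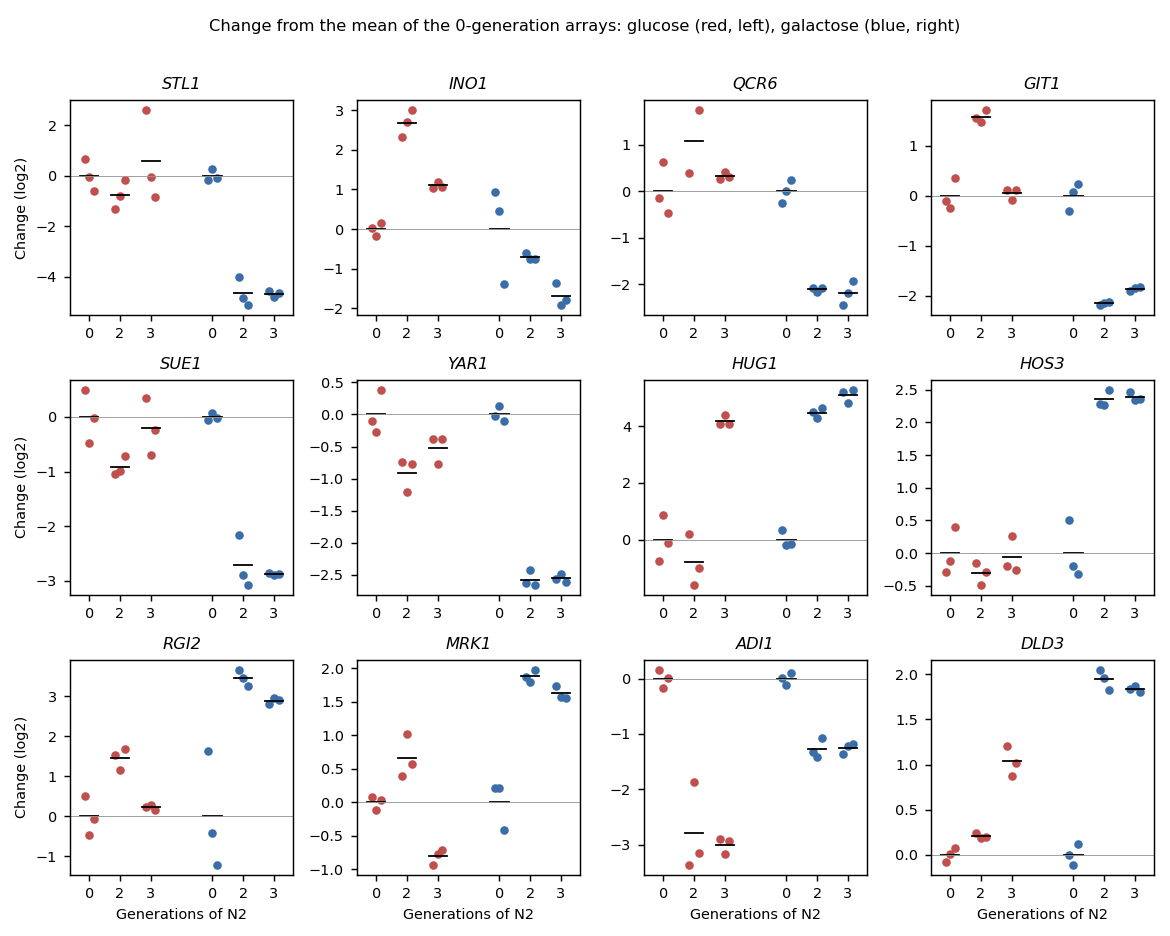
Change of each array from the mean of the 0-generation arrays of its medium (vertical axis, log2) for 12 genes, at 0, 2 and 3 generations of N2 (horizontal axis) in glucose (red, left) and galactose (blue, right). Bars are means. For HUG1 the glucose arrays at 3 generations, at 4.08 to 4.40, stand with the galactose arrays and those at 2 generations do not.

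PRM7 (YDL039C), a pheromone-regulated gene, and its neighbour YDL038C differed at 3 generations only. PRM7 stood at −0.16, 0.66 and 0.33 at 2 generations and at 3.37, 3.96 and 3.53 at 3 generations in glucose, and at −1.05 to −0.38 in galactose. The difference was 0.84 at 2 generations, which was not called, and 4.52 ± 0.27 (SE, adjusted p = 8.02e-18) at 3 generations. The difference between these time points was itself called for PRM7 (adjusted p = 2.79e-14). YDL038C had differences of 0.97 and 4.38 at these times. The 2 genes correlated at 0.95 over the 83 arrays and may not be separate measurements. With 0.04 generations as the control the mean difference of PRM7 was 0.69 and that of YDL038C 0.74, neither called, and PRM7 stood at 2.18 at 0.04 generations in glucose.

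Several genes of cell wall proteins rose in both media and differed between them. YMR317W, similar in sequence to cell wall mucin-like proteins, stood at 6.46 to 7.43 in glucose and at 3.25 to 4.32 in galactose, a difference of 3.04 ± 0.28 (SE, adjusted p = 9.54e-11). CSS1 (YIL169C), which codes for a secreted protein, stood at 3.84 to 4.89 in glucose and 1.93 to 3.10 in galactose. DAN4, an anaerobically expressed mannoprotein, stood at 4.65 to 5.71 in glucose and 3.08 to 4.15 in galactose. The arrays of the media did not overlap for any of these 3 genes. CSS1 differed by 1.96 ± 0.31, with 1.78, not called, at 2 generations and 2.14 at 3 generations. Its call was lost without replicate 1 at 0 generations in galactose (1.75, adjusted p = 0.0174). DAN4 differed by 1.51 ± 0.23 (SE), with 0.73, not called, at 2 generations and 2.30 at 3 generations, and the contrast between these times was called. HPF1, a mannoprotein gene closely related to CSS1, and GSC2, a catalytic subunit of glucan synthase, were chosen after their values were seen and differed by 1.81 ± 0.20 and 1.46 ± 0.20. HPF1 and CSS1 correlated at 0.99 over the 83 wild-type N2 arrays of both media, and whether the probes tell these related genes apart is not known. YMR317W correlated at 0.94 with HPF1 and at 0.93 with CSS1, and whether it is a separate measurement is not known either.

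Of the 10 genes in the list of DAN, TIR and CWP wall proteins, 8 rose and 1 fell in glucose, and 8 rose and 1 fell in galactose. Only DAN4 was called between the media, in the mean and at 3 generations. The median difference of the list was 0.68, with a spread of 0.42 between arrays (SD of the list median carried through the difference), against 0.02 over all genes tested. With quantile normalization the median was 0.05. The PAU genes, called seripauperins, rose in both media, 22 of 24 in each. Their median change was 3.79 in glucose and 3.49 in galactose, and none was called between media in the mean, while 2 were higher at 3 generations. Their median difference was 0.35, and −0.35 with quantile normalization. Several PAU genes have identical values and are not separate measurements.

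RNR3 and HUG1 are known targets of the DNA damage checkpoint. RNR3 (YIL066C), a large subunit of ribonucleotide reductase, stood at 6.62, 5.73 and 5.89 at 2 generations and 3.88, 4.81 and 4.86 at 3 generations in glucose. In galactose it stood at 3.69, 3.27 and 3.40 at 2 generations and 3.28, 2.94 and 3.19 at 3 generations. It thus rose in both media and its difference was 2.00 ± 0.30 (SE, adjusted p = 0.000119), with 2.63 at 2 generations and 1.38, not called, at 3 generations. HUG1 (YML058W-A), an inhibitor of ribonucleotide reductase, went the other way. It stood at −1.59 to 0.21 at 2 generations and 4.09, 4.40 and 4.08 at 3 generations in glucose, against 4.27 to 5.28 over the 6 galactose arrays. Its difference was −5.26 ± 0.58 (adjusted p = 4.95e-08) at 2 generations and −0.92 ± 0.58 (SE), not called, at 3 generations. The mean of −3.09 was lost without replicate 2 at 0 generations in glucose (−2.66, adjusted p = 0.0398) and without replicate 2 or 3 at 0 generations in galactose (−3.00 and −3.01, adjusted p = 0.0107 and 0.0103). At 1 generation the mean of HUG1 was −0.04 in glucose and 3.37 in galactose. CLB1, a mitotic cyclin, rose in glucose and differed by 1.57 ± 0.15, or by 0.82 with 0.04 generations as the control.

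The most common pattern among genes lower in glucose was a rise called in galactose alone. HOS3 (YPL116W), a histone deacetylase, stood at −0.49 to 0.27 in glucose and 2.27 to 2.50 in galactose, with a difference of −2.55 ± 0.35 (SE, adjusted p = 1.11e-05). RDS2 (YPL133C), a zinc cluster activator of gluconeogenic genes, stood at −0.51 to −0.08 in glucose and 0.99 to 1.85 in galactose, a difference of −1.65 ± 0.21. Neither was called with 0.04 generations as the control, at −1.46 (adjusted p = 0.51) for HOS3 and −0.58 (adjusted p = 1) for RDS2. DSE2, a daughter cell-specific gene of cell separation, differed by −1.30 ± 0.18 in the mean, by −0.96, not called, at 2 and by −1.64 at 3 generations. DLD3, a cytosolic D-lactate dehydrogenase, rose in both media and differed by −1.27 ± 0.16. For all 4 genes the arrays of the media did not overlap. For DLD3 the difference was −1.74 at 2 generations and −0.80 at 3 generations, which was not called.

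The paralogs RGI1 and RGI2, which are induced in respiratory growth, were both lower in glucose. RGI2 (YIL057C) stood at 0.16 to 1.68 in glucose and 2.81 to 3.67 in galactose, a difference of −2.33 ± 0.38 (SE, adjusted p = 0.000829), which at 2 generations alone was not called (adjusted p = 0.183). Its galactose control arrays spread from −1.21 to 1.63. The call was lost without replicate 3 (−1.73) or replicate 2 (−2.12) at 0 generations in galactose and without replicate 1 at 0 generations in glucose (−2.08). RGI1 (YER067W) differed by −0.12 at 2 and by −2.94 at 3 generations. Its mean of −1.53, with 1 galactose value missing, was lost without replicate 3 at 0 generations in galactose (−1.06) or replicate 1 at 0 generations in glucose (−1.31). MRK1 (YDL079C), a glycogen synthase kinase 3 homolog, stood at −0.94 to 1.01 in glucose and 1.56 to 1.98 in galactose, a difference of −1.82 ± 0.15 (SE, adjusted p = 2.21e-12). These 3 differences changed with the control. With 0.04 generations as the control they were −0.09 for RGI2, 4.25 for RGI1 and 1.93 for MRK1.

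Other lower genes fell in glucose. ADI1 (YMR009W), acireductone dioxygenase of the methionine salvage pathway, fell in both media and stood at −3.36 to −1.87 in glucose and −1.42 to −1.08 in galactose. Its difference was −1.63 ± 0.24 (SE, adjusted p = 6.22e-05), and −1.14 (adjusted p = 0.0771) with 0.04 generations as the control. The uncharacterized YLR108C also fell in both, with a difference of −1.33 ± 0.11. ADH6, an NADPH-dependent alcohol dehydrogenase, stood at −1.06 to −0.39 in glucose and 0.34 to 0.93 in galactose, a difference of −1.46 ± 0.15. ERG5 (YMR015C), the sterol C-22 desaturase, fell at 3 generations in glucose, where it stood at −2.42, −2.53 and −2.46, and overlapped with galactose at 2 generations. Its difference was −0.59 at 2 and −2.46 at 3 generations, and the call on the mean was lost without replicate 2 at 0 generations in galactose (−1.46, adjusted p = 0.0128).

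Most nuclear genes of the respiratory chain fell in both media. Of 10 genes of cytochrome c and the bc1 complex, 9 fell in glucose and 9 in galactose, with median changes of −2.61 and −2.18. All 8 cytochrome c oxidase genes fell in both, with medians of −2.88 in glucose and −2.39 in galactose. Of 15 ATP synthase genes, 12 fell in glucose and 11 in galactose. The mean difference was called for 3 genes of these lists, QCR6 higher, and CYT1, cytochrome c1, and INH1, the ATPase inhibitor, lower. CYT1 differed by −0.99 ± 0.18 and INH1 by −1.03 ± 0.13. The call on CYT1 was lost in 14 of 18 fits that left out a single array and with 0.04 generations as the control (−0.80). The calls lay at 3 generations, where 3 genes of the cytochrome c and bc1 list, 3 of the oxidase list and 4 of the ATP synthase list were lower and QCR6 was higher. Among all genes tested 2.05% were lower at that time. At 2 generations QCR6 was the one call in these lists. The median differences at 2 generations were 0.44 for cytochrome c and bc1, 0.36 for the oxidase and 0.40 for the ATP synthase, with spreads between arrays of 0.41, 0.50 and 0.17. At 3 generations they were −0.79, −0.73 and −0.59. The difference of CYT1 was 0.20 at 2 and −2.18 at 3 generations, and that of INH1 was 0.33 and −2.38. The list of mitochondrial ribosomal proteins was filled by symbol. It also took in MRX genes, such as MRX20 and MRX21, which are not named as ribosomal proteins. Of the 85 genes tested in this wider list, 60 fell in glucose and 55 in galactose, and none was called between media in the mean. Of 8 protein genes of the mitochondrial genome, a fall was called for 4 in glucose and 0 in galactose, with median changes of −1.37 and −0.81. Their median differences were −0.98 at 2 and −0.33 at 3 generations, with spreads between arrays of 0.71 and 0.39. No difference was called at either time.

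Reserve carbohydrate genes turned between 2 and 3 generations. Among 17 genes of trehalose and glycogen metabolism none was called in the mean, but 3 were higher at 2 generations and 7 lower at 3 generations. The difference between the time points was called for 12, all lower at 3 generations. The shares of all genes tested for these 3 counts were 1.29%, 2.05% and 3.57%. The median difference of the list was 0.58 at 2 and −1.03 at 3 generations, against 0.00 and 0.03 over all genes. Its spreads between arrays were 0.46 and 0.45, so the value at 2 generations stood little beyond its spread. PGM2, phosphoglucomutase, which also serves galactose use, changed by 1.69 at 2 and −1.70 at 3 generations in glucose and by 0.55 and 0.74 in galactose. Its difference was 1.14 (adjusted p = 0.00301) at 2 and −2.44 (adjusted p = 1.12e-12) at 3 generations. TSL1, a subunit of trehalose synthase, differed by 1.52 and −2.03, and GPH1, glycogen phosphorylase, by 1.45, not called, and −2.42. TSL1 and PGM2 are among the 6 genes called at both times with opposite sign. The others are DDR2, a stress-induced gene, OLE1, the fatty acid desaturase, YCR102C and YLR460C. OLE1 differed by 1.91 at 2 and −1.33 at 3 generations, YCR102C by −1.58 and 1.11, YLR460C by −1.10 and 1.14 and DDR2 by 1.60 and −2.06. Relative to 0 generations, HSP12 stood at −2.79 at 0.04 generations in glucose, and with 0.04 generations as the control the median difference of the list in the mean was 1.59 instead of −0.26. Of 43 list medians, 23 moved by more than their spread with this control and 5 with quantile normalization.

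**Figure D4:**
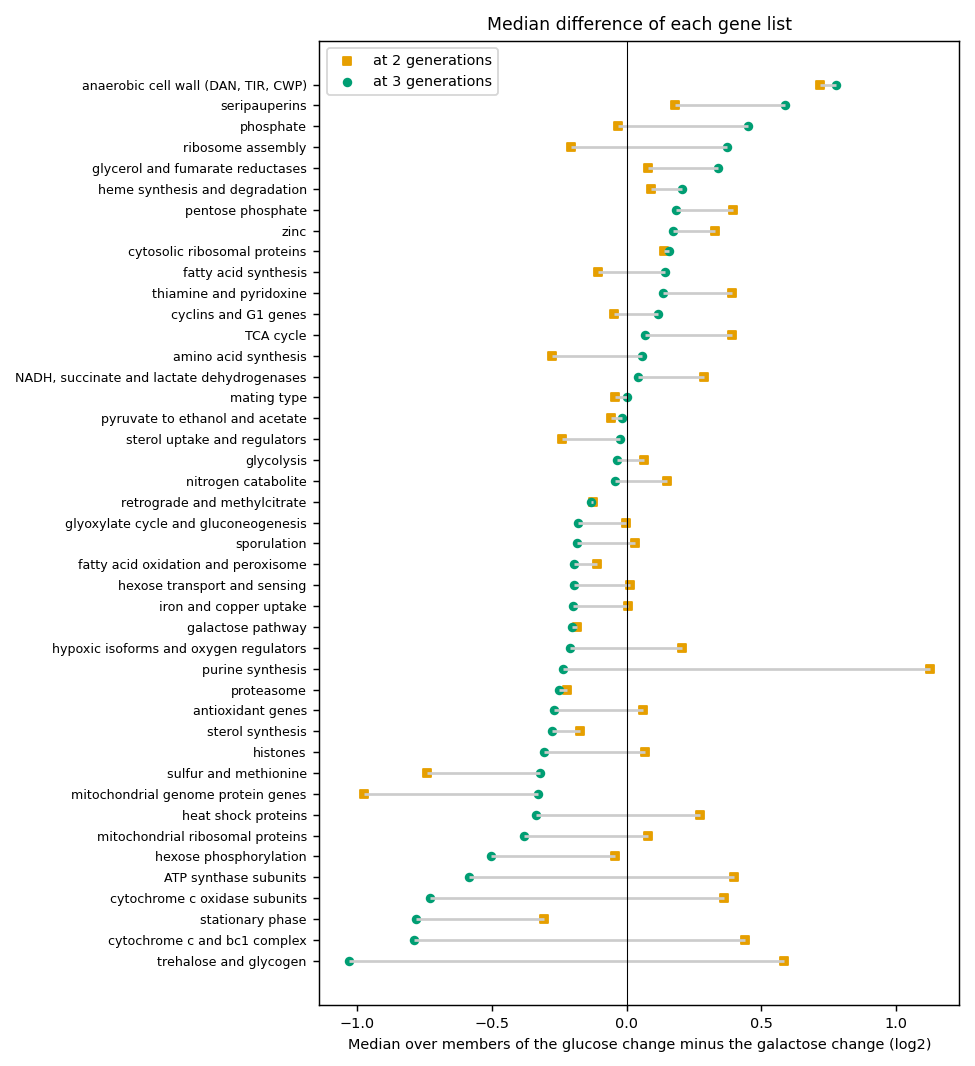
Median over the members of each of 43 gene lists of the glucose change minus the galactose change (horizontal axis, log2) at 2 generations (squares) and 3 generations (circles), ordered by the value at 3 generations. The median of 21 lists changed sign between the 2 times, with trehalose and glycogen at 0.58 and −1.03. Some of these medians lay within their spread between arrays at both times. Glycolysis, for example, was at 0.07 and −0.04 with spreads of 0.14 and 0.16.

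Sulfur assimilation and purine synthesis differed at 2 generations. Of 23 genes of sulfur and methionine metabolism, 6 were lower and 0 higher at 2 generations, and 0 were lower and 1 higher at 3 generations. Among all genes tested, 0.786% were lower and 1.29% higher at 2 generations, and 2.05% lower and 1.43% higher at 3 generations. In the mean, MET14, adenylylsulfate kinase, and MET17, O-acetylhomoserine sulfhydrylase, were lower and MET22, a phosphatase that clears the inhibitory product of sulfate assimilation, was higher. MET14 stood at −0.69 to −0.63 at 2 generations and 0.76 to 0.91 at 3 generations in glucose, against 1.03 to 1.32 over the 6 galactose arrays. Its difference was −1.73 ± 0.18 (SE, adjusted p = 5.70e-09) at 2 and −0.32 at 3 generations. MET17 differed by −1.76 and −0.34. The calls on the means of MET17 and MET22 were lost in 15 and 11 of 18 fits without a single array. MET17 was also not called with 0.04 generations as the control (−1.03, adjusted p = 0.0112), where MET22 differed by 1.61. Of 14 purine genes, 3 were higher at 2 generations and 0 were called at 3. ADE17, of the last steps of purine synthesis, had changed by −0.52 at 2 and −4.70 at 3 generations in glucose, and by −4.90 and −4.31 in galactose. Its difference was 4.38 ± 0.47 (SE, adjusted p = 1.59e-08) at 2 generations. ADE1 and ADE12 differed by 2.44 and 1.70 at that time. For all 3 genes the fall was called at both times in galactose and at 3 generations only in glucose. Over all genes, 712 (12.7%) and 1100 (19.6%) were called at 2 and 3 generations in glucose, and 772 (13.8%) and 759 (13.5%) in galactose.

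The differences of 2 genes of the oxidative pentose phosphate branch had opposite signs at both times. ZWF1 (YNL241C), glucose-6-phosphate dehydrogenase, stood at −1.06 to −0.71 in glucose and 0.10 to 0.24 in galactose. GND1 (YHR183W), 6-phosphogluconate dehydrogenase of the same branch, stood at −0.38 to −0.09 in glucose and −1.22 to −0.92 in galactose. Neither gene overlapped between the media. ZWF1 differed by −1.03 ± 0.12 (SE, adjusted p = 5.32e-08), at −0.96 and −1.10 at the 2 times. GND1 differed by 0.88 (adjusted p = 3.79e-07), at 0.82 and 0.94. Of 13 pentose phosphate genes these 2 were called in the mean and at 3 generations, and TAL1, transaldolase, with them at 2 generations (0.90). GND1 was not called with 0.04 generations as the control (0.33).

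None of 11 genes of the galactose pathway was called in the mean. PGM2 is among them, and its opposite differences of 1.14 at 2 and −2.44 at 3 generations offset only in part in the mean. Of 23 genes of hexose transport and sensing, the closely related transporters HXT11 and HXT9 differed by −1.07 ± 0.15 and −0.89 ± 0.15 (SE). Their rise was called in galactose and not in glucose. These were 0.69 and 0.10 with 0.04 generations as the control, and HXT9 lost its call in 3 of 18 fits without a single array. At 3 generations HXT6 and HXT7, which have identical values, were lower too (−1.55), so that 4 of 23 were called there. Of 21 glycolytic genes 5 rose in glucose and 8 in galactose, and PFK27, which makes the regulator fructose 2,6-bisphosphate, differed by −0.89 ± 0.13, with −1.13 at 2 generations and −0.64, not called, at 3 generations. ADH2, the glucose-repressed alcohol dehydrogenase, differed by −0.85 ± 0.14, with −0.67, not called, at 2 generations and −1.02 at 3 generations. Neither was called with 0.04 generations as the control (−0.64 and −0.69), and ADH2 lost its call in 3 of 18 fits without a single array. SIP4, an activator of gluconeogenic genes, differed by 1.66 ± 0.26, with 1.08, not called, at 2 generations and 2.25 at 3 generations, and was the only call in the mean among 17 tested genes of the glyoxylate cycle and gluconeogenesis. Its call was lost without replicate 2 at 0 generations in glucose (1.42) or replicate 1 at 0 generations in galactose (1.49).

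Of 25 genes of sterol synthesis, 13 rose and 6 fell in glucose, and 13 rose and 4 fell in galactose. ERG5 was the one call between media in the mean, and IDI1 (−1.40) and ERG28 (−0.84) were also lower at 3 generations. Of 43 lists, 24 held no gene called in the mean, and 8 of these held none at 2 or 3 generations either. The list medians lay between −0.59 and 0.68. Cytosolic ribosomal protein genes had a median difference of 0.17 with 0 of 136 called. FTR1, the iron permease, was called in the mean and differed by −0.54, not called, at 2 and by −1.45 at 3 generations. Its mean call was lost in 2 of 18 fits without a single array. UBI4, polyubiquitin, differed by −0.01 at 2 and −1.19 at 3 generations, the contrast between these times was called, and the mean of −0.60 ± 0.10 describes neither time. Its mean call was lost in 3 of 18 such fits and with 0.04 generations as the control (0.27). ZAP1, the zinc-responsive activator, differed by 0.60 ± 0.11 and THI20 of thiamine synthesis by 0.75 ± 0.14, but these calls were lost in 14 and 12 of 18 such fits. ZAP1 was not called with 0.04 generations as the control either (0.43). SNZ2 and SNZ3 of pyridoxine synthesis have identical values on every array, and their difference of 0.84 ± 0.12 counts as 1 measurement.

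The following 5 genes, all of protein folding in the endoplasmic reticulum, were picked from the called genes after their values were seen, so they say nothing of folding genes as a group. Their rise was called in glucose and no change was called in galactose. KAR2 (YJL034W), the luminal Hsp70 chaperone, stood at 0.67 to 1.36 in glucose and −0.36 to −0.20 in galactose. LHS1, its partner chaperone, stood at 0.73 to 1.55 in glucose and −0.17 to 0.14 in galactose. MPD1 and PDI1, protein disulfide isomerases, and ERO1, the thiol oxidase of this compartment, were also higher. None of the 5 genes overlapped between the media. The differences were 1.21 ± 0.13 for KAR2 (SE, adjusted p = 8.45e-09), 1.13 ± 0.16 for LHS1, 1.12 ± 0.17 for MPD1, 1.00 ± 0.13 for ERO1 and 0.65 ± 0.12 for PDI1. At 2 and 3 generations KAR2 differed by 1.01 and 1.40, both called. At 2 generations alone the other 4 genes were not called, and PDI1 was called at neither time. ERO1 was not called with 0.04 generations as the control (0.67).

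The arrays of 4 to 6 generations share the 0-generation control with those of 2 and 3 generations, so values are set side by side. Over 4 to 6 generations 618 of 5598 genes (11%) were called. STL1 differed by 4.31, QCR6 by 2.40, SUE1 by 1.89, HOS3 by −2.39 and KAR2 by 0.97, each called as at 2 and 3 generations. INO1 (1.37), RNR3 (−0.53), HUG1 (−1.40), CLB1 (−0.11), RDS2 (−0.70) and DLD3 (−0.13) were not called there. PRM7 and YDL038C differed by 3.85 and 4.05, and PGM2 by −3.21, near their values at 3 generations.

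**Figure D5:**
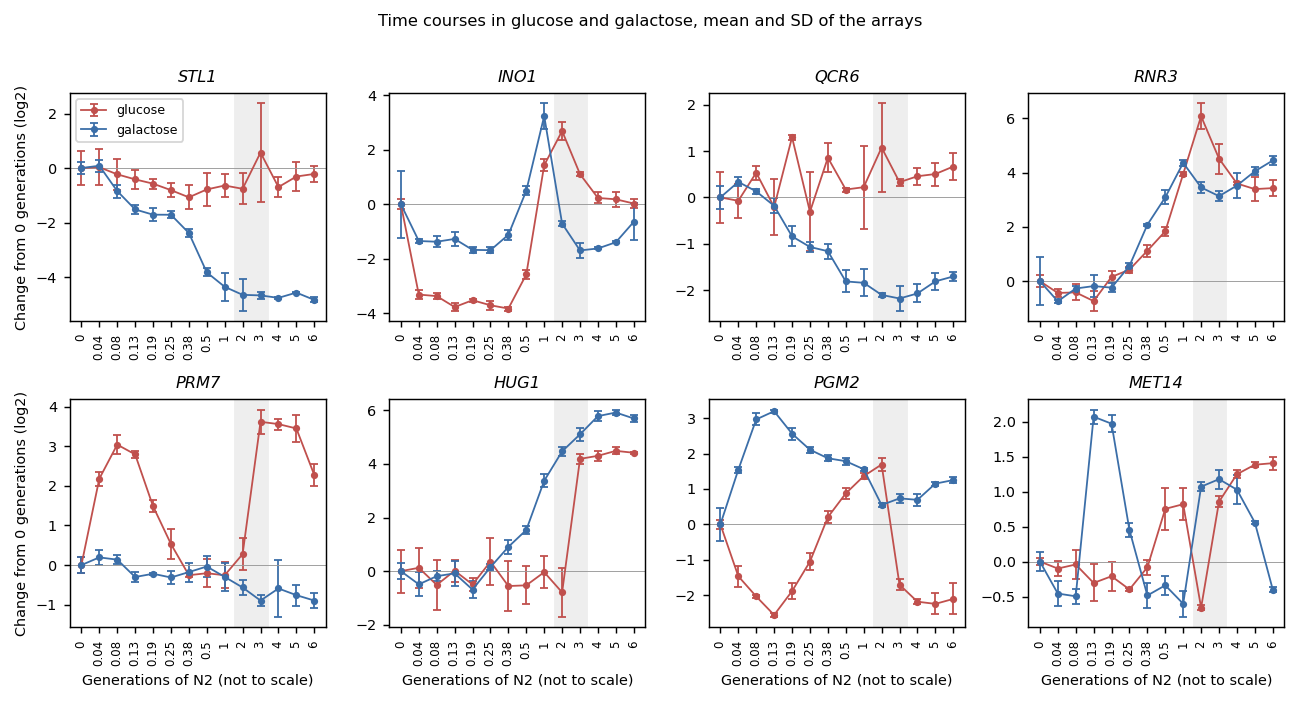
Mean change from 0 generations (vertical axis, log2) with the SD of the arrays, against generations of N2 (horizontal axis, not to scale), for 8 genes in glucose (red) and galactose (blue). The grey band marks 2 and 3 generations. STL1 declined in galactose to −4.65 by 2 generations, and PRM7, HUG1 and PGM2 stepped between 2 and 3 generations in glucose.

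Cultures in galactose that had been treated with antimycin A, an inhibitor of the bc1 complex, for 3 generations in air before the switch to N2 gave another reference point. The change at 2 and 3 generations was taken from the 3 arrays in air with antimycin A, which correlated as low as 0.46 with each other. The antimycin A cultures differed from galactose N2 in 360 genes (6.45%), and glucose N2 from the antimycin A cultures in 312 (5.6%). These comparisons share arrays with the main comparison. STL1 changed by −0.10 in glucose, −2.30 with antimycin A and −4.66 in galactose. QCR6 changed by 0.70, −1.58 and −2.14 in this order, SUE1 by −0.56, −1.85 and −2.79, and YAR1 by −0.71, −0.33 and −2.56. INO1 changed by 1.89, 3.59 and −1.20, RNR3 by 5.30, 4.68 and 3.29, and HOS3 by −0.18, −0.09 and 2.37. KAR2 changed by 0.93, −0.16 and −0.27. The difference between antimycin A and galactose was called for STL1, YAR1, INO1 and HOS3 and not for QCR6, SUE1, RNR3 or KAR2. The difference between glucose and antimycin A was called for KAR2 (adjusted p = 0.000139) and not for the other 7 genes.

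The return to air was measured on other arrays. The 33 arrays labelled glucose re-aeration had GAL1 at 8.30 to 8.80, GAL7 at 9.27 to 10.3 and the glucose-induced HXT1 at −5.62 to −3.02 relative to their reference, which goes against the label or the reference. The change at 6.8 and 7.6 generations from 6 differed between the 2 sets of re-aeration arrays in 195 of 5560 genes (3.51%), and no direction by medium is given.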

How the data were processed

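The authors quantified oligonucleotide arrays with GenePix Pro, then background-subtracted and normalized the spots. Each array has 1 deposited value per ORF. The deposited values were read as log2 ratios of sample (Cy3) over reference (Cy5), although base, centring and direction are not stated. For glucose arrays the labels name a galactose N2 reference in the channel 2 field and a pool of all time points in the description. Of 5609 ORFs, 5597 were named through the RefSeq annotation R64. Of these rows, 99 share identical values with another row.

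A linear model with 1 mean for each of 22 groups was fitted to the 65 wild-type N2 arrays from 0 to 3 generations (32 in glucose, 33 in galactose) in R 4.3.3 with limma 3.58.1. Genes with fewer than 2 values in a compared group were left out. Holm's adjustment ran over all genes tested, with calls at 0.01, after the step-down Bonferroni threshold of the study's methods. SE are those of the model. The model was tested on simulated data with known changes.

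Named genes are the 12 called genes with the largest positive and the 12 with the largest negative mean difference that had the same sign at 2 and 3 generations, up to 3 called genes of each of 43 lists, GAL1, ACT1, TDH3, and list members needed for the account. Genes and lists were chosen with earlier results of these data known. No sequences were used here.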

Additional observations from a re-analysis of the deposited data

Results flagged for a closer look

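The changes under N2 differed between glucose and galactose by a test of the difference itself for 107 genes in the mean of 2 and 3 generations, for 116 genes at 2 generations and for 195 genes at 3 generations. In 2 genes the changes were called in opposite directions in the 2 media. PBI1 changed by 0.56 in glucose and −0.56 in galactose, a difference of 1.11, and ADH6 changed by −0.82 in glucose and 0.63 in galactose, a difference of −1.46. PBI1 differed by 0.29, not called, at 2 generations and by 1.94 at 3 generations. ADH6 differed by −1.76 and −1.16 at these times, and both were called. No single sample was tested for standing apart, since all groups hold 3 arrays or fewer.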

How the results depend on the processing

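Counts of called genes moved with the threshold and the error model. With Benjamini-Hochberg adjustment the calls were 363 in the mean difference, 327 at 2 and 781 at 3 generations, 1823 and 1680 for the changes within glucose and galactose, 1712 at 4 to 6 generations, 636 between the sets of re-aeration arrays, 973 for antimycin A against galactose and 1009 for glucose against antimycin A. With only the groups compared in the fit they were 56, 41, 59, 460, 431, 392, 77, 150 and 129 in this order. A 2-fold minimum left 68 in the mean difference, 437 in glucose and 400 in galactose. Quantile normalization left 112 at 3 generations, and its calls were 40 higher of 85 in the mean and 40 higher of 82 at 2 generations, against 61 of 107 and 72 of 116. With 0.04 generations as the control, chosen after seeing the data, the calls were 444, 536 and 305, and the mean difference turned to 1.93 for MRK1, 4.25 for RGI1, 0.69 for HXT11, 0.10 for HXT9 and 0.27 for UBI4.

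Leaving out a replicate number gave 32 to 73 calls in the mean difference, 27 to 73 at 2 and 60 to 137 at 3 generations, 573 to 700 in glucose, 512 to 735 in galactose, 196 to 476 at 4 to 6 generations, 98 to 108 for re-aeration, 197 to 205 for antimycin A against galactose and 120 to 195 for glucose against antimycin A. Leaving out single arrays gave 83 to 112, 84 to 109, 152 to 191, 759 to 916 and 730 to 852 for the first 5 of these. The cause of these shifts was not tested, beyond the smaller number of arrays. Of 46 named called genes, 30 were called without each single array for which the fit could be made, and 37 were called with quantile normalization. Only 21 were called with just the groups compared in the fit. Without replicate number 1, 2 or 3 the calls kept were 29, 15 and 20. With the replicate number as a block 126, 130 and 227 genes were called in the mean, at 2 and at 3 generations. Deviations of same-numbered arrays correlated at −0.14 to 0.13, and 7 of 18 correlated best with their own number, so the numbers were not taken to pair arrays.

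Limits of these results are the 3 arrays per group, the control at 0 generations and the step between 2 and 3 generations in glucose. Spot intensities were not used here, so no signal over background stands beside a ratio.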
